A study of Mus musculus with 6 samples.

Results

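The genes described here make cholesterol and fatty acids, control that synthesis, or move and clear cholesterol. They were taken from a list of 39 genes that covers the sterol synthesis enzymes, the SREBP system, the liver X receptors, sterol transport and the fatty acid enzymes. A probe set with 1 gene symbol was found for 37 of the 39, among 19938 genes measured in this way, and Acat2 and Nr1h2 were not analysed here. A gene with several probe sets was read by its brightest on average, and no filter on low values was applied.

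Each animal, a C57BL/6 mouse, gave RNA of the adult forebrain cortex to 1 Affymetrix whole-transcript array. The 3 Dicer KO animals had the genotype CamKII-Cre/+;Dicer flox/flox, so that the CamKII promoter drives Cre recombinase against both alleles of Dicer, the enzyme that cuts microRNA precursors. The 3 littermate controls had either CamKII-Cre/+;Dicer flox/+ or a Dicer flox/flox genotype without Cre, without a label telling which animal had which, so some controls may carry a single deleted allele. The promoter is active in excitatory forebrain neurons, and the other cells of the cortex keep Dicer. No age beyond adult is given.

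Cholesterol is built from acetyl-CoA through mevalonate, squalene and lanosterol. The transcription factor SREBP-2, encoded by Srebf2, switches on nearly every enzyme of this route when sterol runs low; INSIG proteins hold it and its escort SCAP in the endoplasmic reticulum when sterol is plentiful. Its relative SREBP-1, from Srebf1, acts mainly on fatty acid synthesis, and the liver X receptors answer to oxysterols by switching on sterol export genes such as Abca1, Abcg1 and Apoe, and Srebf1 itself. The adult brain makes its own cholesterol, mostly in glia, because lipoproteins of the blood do not cross the blood-brain barrier, and neurons dispose of the excess through CYP46A1.

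All values are on the log2 scale as deposited, and differences are Dicer KO minus control with the moderated SE of limma, n = 3 each. Array medians lay between 7.13 and 7.22 over all 35557 rows. Dicer1 itself read 9.58, 9.68 and 9.46 in the Dicer KO arrays, against 9.17, 9.21 and 9.18 in the controls, so this gene, read by 1 probe set, was no check of the knockout. Dicer KO arrays 1 and 3 and control array 2 came from males by the Y-linked gene Eif2s3y, at 9.07 or above there and 4.44 or below in the other 3 arrays. Sex was therefore not balanced: 2 males and 1 female stood against 1 male and 2 females. The excitatory neuron markers that define the tissue were present in every array, with Slc17a7 between 12.06 and 12.27 in Dicer KO cortex and between 12.12 and 12.37 in control cortex.

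Most cholesterol and lipid synthesis genes read lower in Dicer KO cortex, while the sterol exporter Abca1, the lipoprotein gene Apoe and Srebf1 read higher. Of the 37 measured genes, 30 had negative and 7 positive differences, where 52.7% of all genes tested were negative and 47.3% positive. No gene of the list passed an adjusted p of 0.05 in limma, and 0.281% of all genes did. At an unadjusted p under 0.05 there were 23 of 37, or 62.2%, against 14.4% of all genes. The 23 were 20 lower genes, where 7.39% of all genes were lower at that level, and 3 higher genes, where 7.01% were higher. Without the dimmest 25% of genes, 17.4% of the genes tested had such a p. The list was chosen with earlier results of these data known. The Dicer KO and control arrays did not overlap for 20 of 37, or 54.1%, against 20.3% of all genes. Of those 20, 17 were lower, where 11% of all genes were lower without overlap, and 3 were higher, where 9.3% were. The median difference of the 37 genes was -0.26, and that of all genes was -0.0092. Without Dicer KO array 2 the count at an unadjusted p under 0.05 was 15, against 11.1% of all genes, and without control array 3 it was also 15, against 12.7%. Stard4, Abca1 and Srebf2 had an adjusted p under 0.1, as did 1.6% of all genes; 0.898% of all genes were lower and 0.707% higher at that level. With arrays weighted by their fit, 7 genes of the list passed an adjusted p of 0.05, where 5.6% of all genes did. In this bulk tissue, fewer cells of a type and less RNA per cell cannot be told apart.

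**Figure D1:**
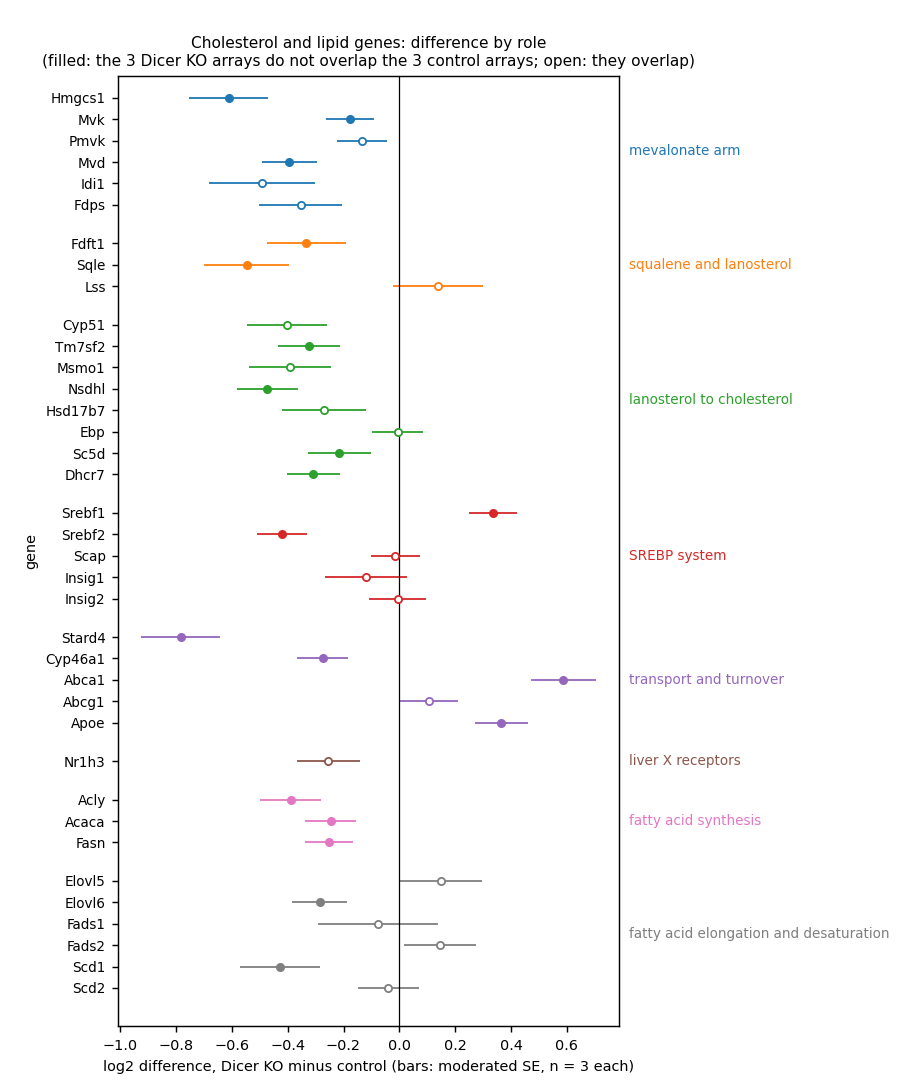
Log2 difference of each of the 37 measured genes, Dicer KO minus control, on the x axis, with genes grouped by role on the y axis; bars are the moderated SE, n = 3 each. Filled points mark the 20 genes whose groups do not overlap, 17 of them left of 0 and 3 right of it (Srebf1, Abca1 and Apoe).

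The first steps, from acetoacetyl-CoA to the isoprenoid farnesyl diphosphate, were lower for all 6 measured enzymes, 4 of them at an unadjusted p under 0.05. Of all genes, 52.7% were negative and 7.39% were lower at that p. Hmgcs1, the HMG-CoA synthase of the cytosol and the step before mevalonate, read 11.19, 10.86 and 10.63 in Dicer KO arrays 1 to 3, against 11.37, 11.56 and 11.59 in control arrays 1 to 3. Every Dicer KO array lay below every control array, and Dicer KO array 1 was the nearest to the controls. The mean was 10.89 ± 0.28 in Dicer KO and 11.51 ± 0.12 in control cortex (SD, n = 3 each), a difference of -0.61 ± 0.14 (SE; limma adjusted p = 0.106). Mvd, which decarboxylates mevalonate diphosphate, read 8.33, 8.19 and 8.10 in Dicer KO arrays, against 8.61, 8.47 and 8.71 in controls. The groups were again apart, by -0.39 ± 0.10 (SE; adjusted p = 0.131). Idi1, the isomerase of isopentenyl diphosphate, read 9.51, 9.24 and 9.36 in Dicer KO arrays and 9.50, 9.75 and 10.34 in controls. Control array 1 lay within the Dicer KO range and control array 3 stood above the rest, so the difference of -0.49 ± 0.19 was -0.25 without control array 3. A second Idi1 probe set gave -0.48 ± 0.21 (SE). Fdps, the farnesyl diphosphate synthase, overlapped between the groups, at -0.35 ± 0.15, and was at -0.21 without control array 3. The kinases Mvk and Pmvk, which phosphorylate mevalonate in turn, had the smallest differences of this arm, at -0.18 ± 0.085 and -0.13 ± 0.090 (SE), and neither reached an unadjusted p of 0.05.

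Promoter sequences are shown for 4 genes of lower reading and for Abca1, which read higher, because SREBP-2 is known to bind sterol regulatory elements beside NF-Y, a factor that binds CCAAT boxes. They are the 250 bases before the RefSeq start on GRCm38.p6, written 5′ to 3′ on the gene's strand, and capitals mark the letters CCAAT on either strand and TCACNCCAC, a form of the sterol regulatory element.
Hmgcs1, chr13:119690101-119690350, plus strand: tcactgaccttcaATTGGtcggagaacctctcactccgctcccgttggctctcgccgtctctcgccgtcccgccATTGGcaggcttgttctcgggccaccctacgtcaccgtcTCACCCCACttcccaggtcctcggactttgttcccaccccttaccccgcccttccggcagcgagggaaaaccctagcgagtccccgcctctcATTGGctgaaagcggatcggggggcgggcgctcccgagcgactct
Mvd, chr8:122443423-122443672, minus strand: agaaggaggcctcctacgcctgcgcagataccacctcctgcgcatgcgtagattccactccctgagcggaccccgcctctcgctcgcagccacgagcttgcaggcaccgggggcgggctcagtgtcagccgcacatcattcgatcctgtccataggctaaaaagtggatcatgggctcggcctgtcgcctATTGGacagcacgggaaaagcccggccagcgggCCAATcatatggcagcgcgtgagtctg
Nsdhl, chrX:72918271-72918520, plus strand: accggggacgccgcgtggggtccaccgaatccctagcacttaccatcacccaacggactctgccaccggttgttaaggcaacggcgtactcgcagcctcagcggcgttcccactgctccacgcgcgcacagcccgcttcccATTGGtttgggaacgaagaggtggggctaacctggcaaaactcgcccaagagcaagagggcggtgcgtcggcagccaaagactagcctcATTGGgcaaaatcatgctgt
Srebf2, chr15:82147019-82147268, plus strand: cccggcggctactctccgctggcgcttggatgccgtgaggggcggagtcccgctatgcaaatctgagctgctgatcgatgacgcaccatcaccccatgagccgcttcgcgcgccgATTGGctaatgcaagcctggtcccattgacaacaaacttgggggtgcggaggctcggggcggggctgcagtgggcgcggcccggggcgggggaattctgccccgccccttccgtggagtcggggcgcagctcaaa
Abca1, chr4:53159896-53160145, minus strand: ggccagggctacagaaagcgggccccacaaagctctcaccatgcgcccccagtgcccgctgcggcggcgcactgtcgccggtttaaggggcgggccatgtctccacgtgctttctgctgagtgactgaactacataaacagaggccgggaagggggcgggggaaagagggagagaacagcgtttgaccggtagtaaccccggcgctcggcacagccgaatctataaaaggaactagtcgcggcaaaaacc

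Hmgcs1 holds the element TCACNCCAC once, its first base at -137 from the start, and CCAAT 3 times. Of the 37 genes, 29 have a promoter entry, and windows of several starts were searched where RefSeq lists them. On either strand, CCAAT was found for all 14 cholesterol synthesis enzymes with an entry, and for 21 of the 29 genes, or 72.4%, against 37.5% of 27025 genes. The enzymes include Lss and Ebp, which did not read lower beyond their error. CCAAT was also found for Srebf1, which read higher. It was absent from the windows of Acly, Acaca and Elovl6, which read lower without overlap, and of Apoe, which read higher. Only starts with an entry were searched, a single start for Acaca, so absence there does not cover any other start of the gene. TCACNCCAC was found for Hmgcs1 alone among the 29, or 3.45%, against 1.22% of all genes. The Abca1 window holds neither string. A match is a string of letters and not a measured binding site, and windows were not matched for base composition.

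The next 3 enzymes carry farnesyl diphosphate to lanosterol. Sqle, squalene epoxidase and the oxygen-dependent, rate-controlling step, read 9.80, 9.31 and 9.67 in Dicer KO arrays, against 10.05, 9.98 and 10.39 in controls. No Dicer KO array reached the lowest control, and the mean of 9.60 ± 0.26 in Dicer KO against 10.14 ± 0.22 in control cortex (SD, n = 3 each) gave -0.55 ± 0.15 (SE; adjusted p = 0.158). Fdft1, which joins farnesyl units into squalene, was at -0.33 ± 0.14 (SE; adjusted p = 0.326), without overlap, but at -0.16 without control array 3. A second Fdft1 probe set gave -0.23 ± 0.16. Lss, the cyclase that closes the rings of lanosterol, was the exception in the route: it read 8.70, 8.82 and 8.15 in Dicer KO arrays and 8.32, 8.45 and 8.49 in controls. Dicer KO arrays 1 and 2 lay above all controls and Dicer KO array 3 below them. Its difference of 0.14 ± 0.16 was 0.34 without Dicer KO array 3 and 0.0052 without Dicer KO array 2.

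From lanosterol to cholesterol, 8 of 8 measured enzymes had negative differences, 5 of them at an unadjusted p under 0.05 and 4 without overlap. Of all genes, 52.7% were negative, 7.39% were lower at that p and 11% were lower without overlap. Nsdhl, a sterol dehydrogenase that takes part in removing methyl groups, read 8.68, 8.51 and 8.58 in Dicer KO arrays, against 8.92, 9.00 and 9.27 in controls. The groups were clearly apart, at -0.47 ± 0.11 (SE; adjusted p = 0.106), a level 1.39-fold higher in control cortex. Cyp51, the lanosterol demethylase, read 8.76, 8.69 and 8.41 in Dicer KO arrays and 8.74, 9.08 and 9.24 in controls, with control array 1 among the Dicer KO values. Its difference was -0.40 ± 0.14 (SE; adjusted p = 0.250). Msmo1, the sterol methyl oxidase, also overlapped, at -0.39 ± 0.15. Tm7sf2, a sterol reductase, was at -0.32 ± 0.11, and Dhcr7, the reductase of the last step of one branch, at -0.31 ± 0.096, both without overlap (adjusted p = 0.237 and 0.198). Sc5d, a desaturase, was at -0.22 ± 0.11 and Hsd17b7, a ketoreductase, at -0.27 ± 0.15, with unadjusted p of 0.0900 and 0.106. Ebp, the sterol isomerase, was at -0.0059 ± 0.090, between 8.22 and 8.24 in Dicer KO and between 8.14 and 8.38 in control cortex, and it was at 0.066 without control array 3.

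**Figure D2:**
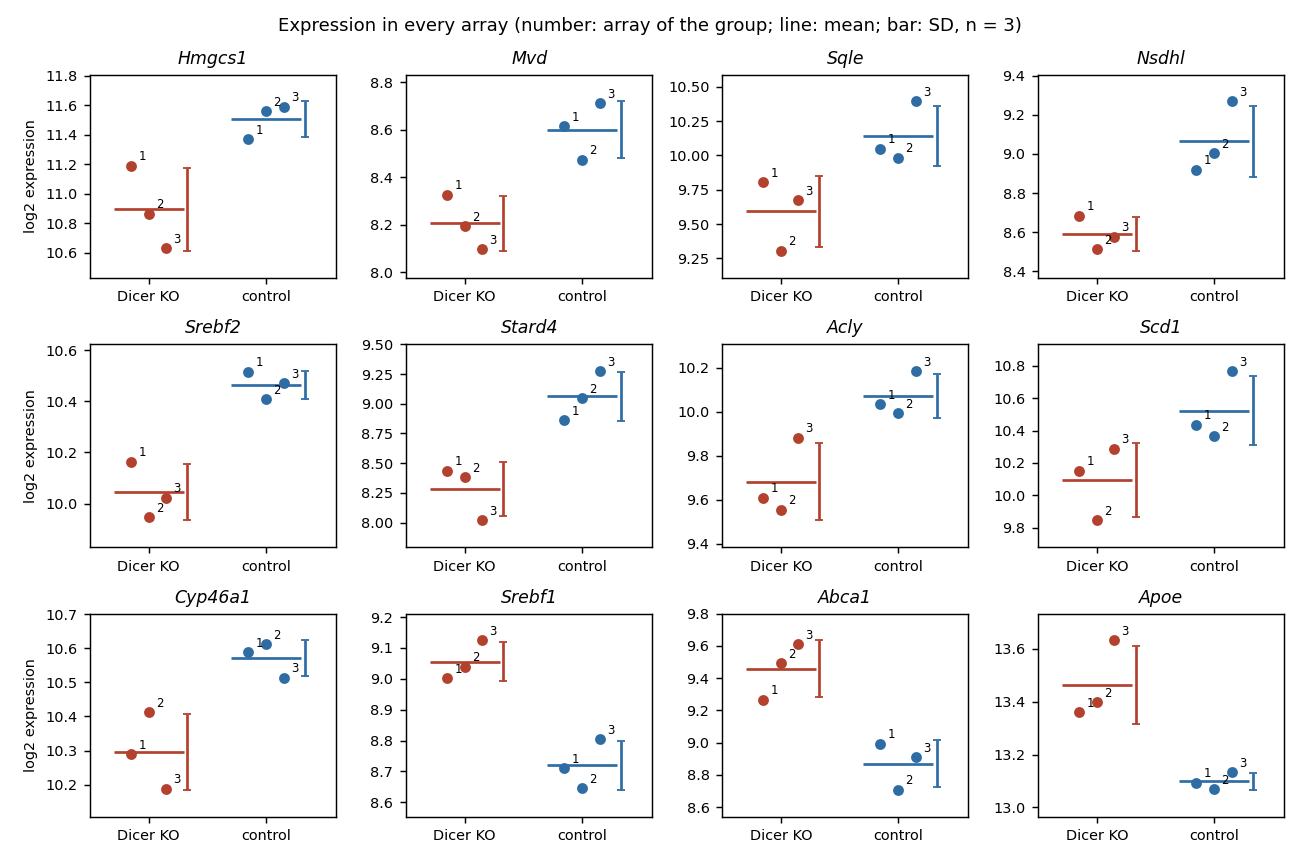
Log2 expression (y axis) of 12 genes in each array, with the 3 Dicer KO arrays left and the 3 control arrays right; numbers name the array, lines are group means and bars the SD, n = 3. The 12 genes are all among those without overlap between the groups, so the groups are apart in each panel. Genes that overlap, such as Idi1, Cyp51 and Lss, are not shown. The first 9 genes read lower in Dicer KO cortex, and Srebf1, Abca1 and Apoe read higher.

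In the system that controls this route, the 2 SREBP genes differed in opposite directions. Srebf2 read 10.16, 9.95 and 10.02 in Dicer KO arrays, against 10.52, 10.41 and 10.47 in controls. Each group was narrow, and the mean of 10.04 ± 0.11 in Dicer KO against 10.46 ± 0.054 in control cortex (SD, n = 3 each) gave -0.42 ± 0.090 (SE; adjusted p = 0.0888), 1.34-fold higher in control. Srebf1 read 9.00, 9.04 and 9.12 in Dicer KO arrays and 8.71, 8.64 and 8.80 in controls, all Dicer KO arrays above all controls, by 0.34 ± 0.086 (SE; adjusted p = 0.133). The probe set of Srebf1 was not resolved into its isoforms. Scap, the escort protein, was at -0.014 ± 0.089, with both groups between 9.49 and 9.71. Insig1, itself a target of SREBP and a retainer of SCAP, read 10.37, 10.28 and 9.88 in Dicer KO arrays and 10.16, 10.21 and 10.53 in controls. Its groups overlapped in part, with Dicer KO array 3 below every control and control array 3 above every Dicer KO array, at -0.12 ± 0.15, and at 0.027 without Dicer KO array 3. Insig2, a relative of Insig1, was at -0.0067 ± 0.10. Leaving out single arrays moved Scap between -0.076 (without Dicer KO array 2) and 0.029 (without Dicer KO array 3), and Insig2 between -0.096 (without control array 1) and 0.044 (without control array 3).

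Srebf2 also hosts a microRNA gene, Mir33, which lies within it in RefSeq (GRCm38.p6; mature miR-33-5p at chr15:82198127-82198147, plus strand), and miR-33 is known to repress Abca1. The mature sequence from RefSeq is shown with its seed, bases 2 to 8, in capitals, since Dicer is needed to make it.
mmu-miR-33-5p: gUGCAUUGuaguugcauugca

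The Mir33 probe set, which can read precursor transcripts, was dim: 3.96, 4.13 and 3.90 in Dicer KO arrays, against 4.30, 3.72 and 3.96 in controls. Its difference of 0.0020 ± 0.14 was smaller than its error. The groups overlapped, and mature miR-33 was not measured.

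Genes that move and clear cholesterol differed in both directions. Stard4, which carries cholesterol through the cytosol and is itself a target of SREBP-2, had the lowest adjusted p of the list. It read 8.44, 8.38 and 8.02 in Dicer KO arrays, against 8.86, 9.05 and 9.28 in controls. The highest Dicer KO value was below the lowest control, and the difference was -0.78 ± 0.14 (SE; adjusted p = 0.0669), 1.72-fold higher in control. Cyp46a1, the neuronal enzyme that hydroxylates cholesterol so that it can leave the brain, read 10.29, 10.41 and 10.19 in Dicer KO arrays and 10.59, 10.61 and 10.51 in controls, a difference of -0.28 ± 0.090 without overlap (SE; adjusted p = 0.216).

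Abca1, the transporter that loads cholesterol onto apolipoproteins, read 9.27, 9.49 and 9.61 in Dicer KO arrays, against 8.99, 8.71 and 8.91 in controls. All Dicer KO arrays were above all controls, by 0.59 ± 0.12 (SE; adjusted p = 0.0797), or 1.50-fold. Apoe, the main apolipoprotein of the brain, read 13.36, 13.40 and 13.63 in Dicer KO arrays and 13.09, 13.07 and 13.13 in controls, by 0.37 ± 0.096 (SE; adjusted p = 0.140). The controls lay close together and Dicer KO array 3 was the highest. Abcg1, a related exporter, overlapped between the groups, at 0.11 ± 0.10, with Dicer KO array 3 and control array 3 at the top. Nr1h3, which encodes a liver X receptor, was dim and read 6.78, 6.66 and 7.06 in Dicer KO arrays, against 7.09, 7.04 and 7.14 in controls, at -0.26 ± 0.11 with Dicer KO array 3 among the controls.

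The enzymes that build fatty acids from citrate were lower in all 3 cases, each without overlap between the groups. Lower readings without overlap held for 11% of all genes. Acly, which splits citrate into acetyl-CoA, read 9.61, 9.56 and 9.88 in Dicer KO arrays, against 10.04, 9.99 and 10.19 in controls, at -0.39 ± 0.11 (SE; adjusted p = 0.163). Acaca, the carboxylase that makes malonyl-CoA, was at -0.25 ± 0.092, and its second probe set gave -0.31 ± 0.083. Fasn, the fatty acid synthase, was at -0.25 ± 0.086 (SE; adjusted p = 0.229). Dicer KO array 2 was the lowest of the 3 for each gene. For all 3 genes, the nearest arrays of the groups were Dicer KO array 3 and a control.

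Elongases and desaturases were mixed. Scd1, a desaturase that makes monounsaturated fatty acids, read 10.15, 9.85 and 10.29 in Dicer KO arrays, against 10.44, 10.37 and 10.77 in controls, without overlap, at -0.43 ± 0.14 (SE; adjusted p = 0.222). Its close relative Scd2, the isoform abundant in brain, was at -0.040 ± 0.11, between 12.53 and 12.93 in Dicer KO and between 12.74 and 12.78 in control cortex. Whether probes of one paralog also read the other was not tested, and Scd2 was at 0.054 without Dicer KO array 2. Elovl6, which extends palmitate, was at -0.28 ± 0.099 without overlap. The enzymes of polyunsaturated fatty acids overlapped between the groups: the desaturase Fads1 was at -0.077 ± 0.22, the desaturase Fads2 at 0.15 ± 0.13 and the elongase Elovl5 at 0.15 ± 0.15. For these 3 genes Dicer KO array 3 was the highest of all 6 arrays, with Fads1 at 11.00, 10.57 and 11.56 in Dicer KO and 11.02, 11.03 and 11.30 in control cortex. Without Dicer KO array 3, Fads1 was at -0.33 and Elovl5 at -0.021, while Fads1 was at 0.16 without Dicer KO array 2.

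The pattern over arrays differed between the branches. Relative to each gene's control mean, the 17 cholesterol synthesis enzymes had medians of -0.21, -0.37 and -0.43 in Dicer KO arrays 1 to 3, against -0.12, -0.077 and 0.19 in control arrays 1 to 3. Control array 3 stood above the other controls, and the arrays closest across the groups were Dicer KO array 1 and control array 1. Their median difference was -0.33, and it was -0.22 without control array 3 and -0.17 without array 3 of both groups, which was tried only once the data were known. The 9 fatty acid enzymes had medians of -0.22, -0.38 and -0.12 in the Dicer KO arrays, against -0.036, -0.059 and 0.052 in the controls, with Dicer KO array 3 nearest to the controls. Within males (2 Dicer KO arrays and 1 control array) the median difference of the 17 enzymes was -0.24, and within females (1 Dicer KO array and 2 control arrays) it was -0.42, and 15 of the 17 were lower in both sexes. With sex as a covariate, 20 of the 37 genes had an unadjusted p under 0.05, against 11.5% of all genes.

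**Figure D3:**
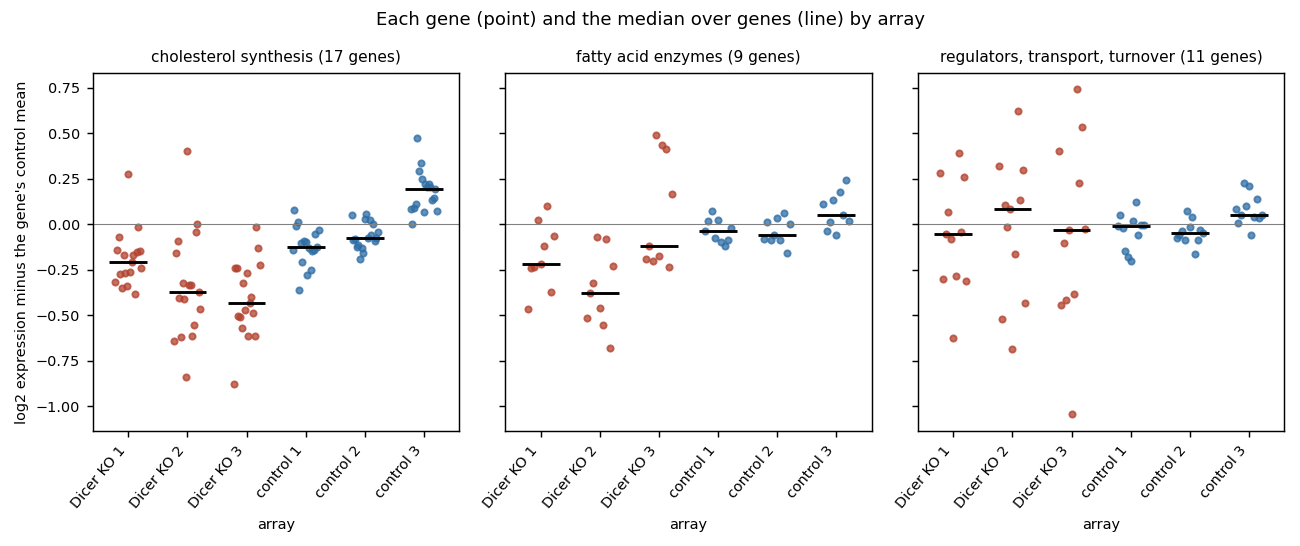
Log2 expression of each gene minus its own control mean (y axis) by array, with 1 point per gene and a line at the median of the 17 cholesterol synthesis enzymes, the 9 fatty acid enzymes and the other 11 genes. The medians of the cholesterol synthesis enzymes are lowest in Dicer KO arrays 2 and 3 and highest in control array 3, and the fatty acid enzymes of Dicer KO array 3 spread upwards.

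Cell type markers moved with some of these values. All 15 of 15 astrocyte markers were measured, and their mean level was 10.52 to 11.03 in Dicer KO arrays, highest in array 3, and 10.49 to 10.63 in controls. Differences were positive for 10 of these 15 and negative for 5, where 47.3% of all genes were positive. Relative to the control mean, the astrocyte list was at 0.076, -0.038 and 0.47 in Dicer KO arrays 1 to 3. The 10 of 10 reactive astrocyte genes ranged from 7.94 to 8.33 in Dicer KO arrays and from 7.45 to 7.66 in controls; Vim, vimentin, was the member past the threshold, at 0.52 ± 0.080 (SE; adjusted p = 0.048). Microglia markers, 11 of 12, ranged from 8.23 to 9.16 in Dicer KO arrays, highest in array 3, and from 8.29 to 8.62 in controls. Relative to the control mean they were at -0.055, -0.20 and 0.73 in Dicer KO arrays 1 to 3. Of these 11 markers 8 were higher and 3 lower. Without overlap, C1qc was higher, at 0.59 ± 0.22, and Tmem119 lower, at -0.29 ± 0.098. Astrocytes and microglia are known to express Apoe and Abca1, and without Dicer KO array 3 Apoe was at 0.28 and Abca1 at 0.51.

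Mature oligodendrocyte markers, 11 of 12, ranged from 9.21 to 9.81 in Dicer KO arrays and from 9.13 to 9.80 in controls, where array 3 was 0.43 above the control mean. Myelinating cells synthesise much sterol, and control array 3 was also the highest control for the sterol enzymes. Dicer KO array 3, at 0.45 on the same marker scale, had the lowest median of those enzymes. Oligodendrocyte precursor markers, 7 of 7, averaged 7.98 to 8.16 in Dicer KO arrays and 8.15 to 8.31 in controls. Relative to the control means their medians were -0.047, -0.33 and -0.25 in Dicer KO arrays 1 to 3, against -0.052, 0.027 and 0.094 in control arrays 1 to 3, so the lowest were Dicer KO arrays 2 and 3 and the highest control array 3, as for the sterol enzymes. Of these 7 markers 5 were lower, where 52.7% of all genes were. Gpr17 at -0.34 ± 0.093 and Olig2 at -0.29 ± 0.10 had an unadjusted p under 0.05, where 7.39% of all genes were lower at that level. Bmp4, at 0.18 ± 0.084 without overlap, and Enpp6, at 0.11 ± 0.20, were higher. Markers of meninges and fibroblasts, 8 of 8, were all higher, where 47.3% of all genes were, and 5 of the 8 overlapped between the groups. At an unadjusted p under 0.05, 4 were higher, where 7.01% of all genes were. Col3a1 had the smallest difference, at 0.0025 ± 0.089. The list averaged 7.86 to 8.22 in Dicer KO arrays, highest in array 1, and 7.72 to 7.90 in controls. Excitatory neuron markers, 10 of 11, ranged from 10.07 to 10.15 in Dicer KO arrays and from 10.19 to 10.30 in controls. Of these, Nrgn, neurogranin, fell past the threshold, at -0.60 ± 0.088 (SE; adjusted p = 0.0413). Differences were negative for 7 of the 10, where 52.7% of all genes were, and positive for 3 (Rorb, Fezf2 and Neurod2). Medians of this list relative to the control means overlapped between the groups. They were -0.068, 0.0038 and -0.18 in Dicer KO arrays 1 to 3, against -0.049, 0.046 and 0.027 in control arrays 1 to 3. Control array 1 carried olfactory bulb transcripts, with 8 of 8 markers averaging 8.52 there and 6.91 to 7.03 in the other 5 arrays, and without it the median of the sterol enzymes was -0.39. Array values have no true zero, so no marker was read as absent. The part of cell composition in the lipid gene differences was not tested.

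**Figure D4:**
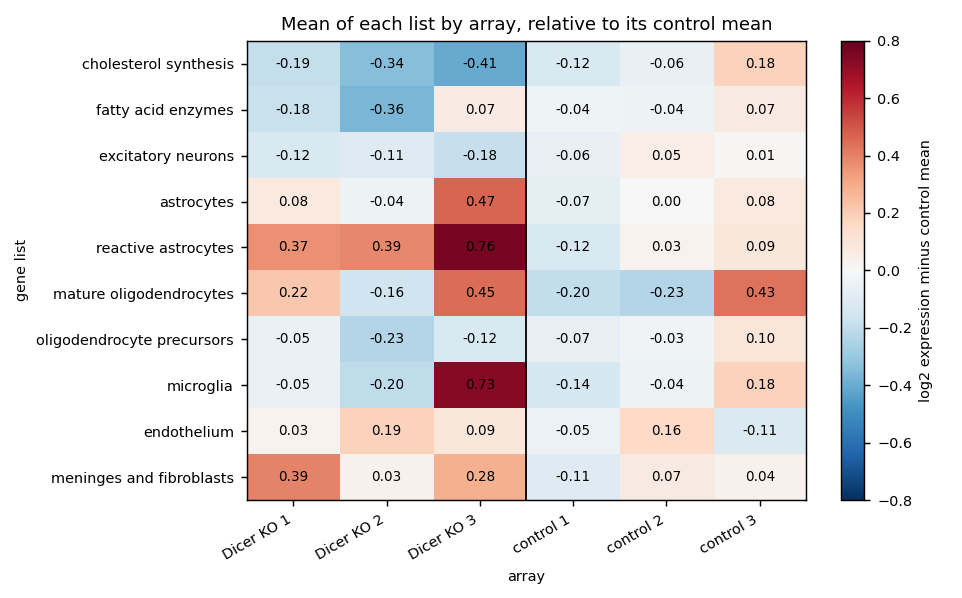
Mean of each gene list (rows) in each array (columns, Dicer KO left of the black line), as log2 expression minus the list's control mean, printed in each cell. The cholesterol synthesis row is negative in all 3 Dicer KO arrays (-0.19, -0.34 and -0.41), while the astrocyte, reactive astrocyte and microglia rows are highest in Dicer KO array 3 and the mature oligodendrocyte row in array 3 of both groups.

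A further 92 genes of lipid metabolism were listed, of which 79 were measured; the others were not analysed here. None of the 79 passed an adjusted p of 0.05 in limma. At an unadjusted p under 0.05 there were 8 lower and 10 higher genes, or 22.8%, against the 14.4% of all genes, and their median difference was 0.013. The genes of smallest p lay on both sides. Acss2, which makes acetyl-CoA from acetate and is a known SREBP target, read 8.97, 8.90 and 8.95 in Dicer KO arrays, against 9.37, 9.40 and 9.50 in controls, at -0.49 ± 0.082 (SE; adjusted p = 0.0548). Both groups were tight and far apart. Elovl2, an elongase of polyunsaturated fatty acids, read 8.51, 8.55 and 8.66 in Dicer KO arrays and 8.03, 8.11 and 8.13 in controls, at 0.48 ± 0.084 (SE; adjusted p = 0.0633). Gpam, the acyltransferase that starts glycerolipid synthesis, was at 0.55 ± 0.11 and Apod, an apolipoprotein of glia, at 0.59 ± 0.12, 1.50-fold higher in Dicer KO cortex. Prkaa2, a catalytic subunit of the energy sensor AMPK, which phosphorylates the product of Acaca, was at 0.41 ± 0.098, and the sterol carrier gene Stard5 at 0.28 ± 0.081. Cyp11a1, the cholesterol side-chain cleavage enzyme, was dim and at -0.51 ± 0.099, and Coq2, an enzyme of ubiquinone synthesis that uses isoprenoids, at -0.32 ± 0.081. All 8 named genes of this group had arrays that did not overlap between the groups, which the rule for naming them required.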

How the data were processed

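Total RNA (200 ng per animal, miRVana PARIS kit) was amplified with a kit for whole transcripts and read on 1 Affymetrix array each, per the labels' protocols. The deposited log2 values, 1 per probe set and array, came from the authors' processing, and the submitters' processing notes name RMA and limma with no version; its settings are not stated in these sources. Differences of dim transcripts come out too small after RMA, and a shift shared by most genes is removed by its quantile step. No detection call was used, and precision is limited by how many arrays there were.

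Of 35557 rows, 21789 had 1 gene symbol in the platform's annotation, 1621 had several and 12147 had none. Symbols of 21698 rows were updated through their gene identifier in a RefSeq table of GRCm38.p6, which left 19938 genes. Groups and array numbers came from the sample titles, which call the arrays biological replicates; the error behind each p-value is the variation among these animals. The tests were run in R 4.3.3 and limma 3.58.1, with a single term for group in lmFit, then eBayes, which gave 4.89 prior degrees of freedom; tests were two-sided and Benjamini-Hochberg adjusted across the 19938 genes, at a threshold of 0.05. With 3 arrays in each group, 0.1 is the smallest two-sided p of an exact permutation test, which was not run. Any pair of arrays differed in at least 35523 rows. The steps were tested on simulated data.

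The genes and lists were chosen with earlier results of these data known. Every measured gene of the list is described. Of the further lipid genes, those past the threshold were to be named, or else up to 8 of smallest p without overlap. The motif letters and the omission of both arrays numbered 3 were chosen after the data were seen. Alternatives were a block for array number, omission of each array, median centring, a second quantile normalization, a filter on dim genes, averaged probe sets, every row, a trended and robust prior, sex as a covariate, array weights, an unmoderated test and an adjusted p of 0.1.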

Additional observations from a re-analysis of the deposited data

How the results depend on the processing

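Between 33 and 37 of the 37 genes kept their direction under each alternative other than array weights, and 35 did under array weights; no gene of the list passed an adjusted p of 0.05 under the others, and 7 did under array weights. The weights were 5.18 for Dicer KO array 1 and between 0.426 and 1.20 for the other arrays, and 1116 of all genes passed. At an adjusted p of 0.1, 3 genes of the list and 5 further lipid genes passed, as did 1.6% of all genes. Further lipid genes past 0.05 numbered 8 with array weights, 2 without the dimmest 25% of genes (Acss2 and Elovl2) and 1 after a second quantile normalization (Acss2). In these settings 5.6%, 0.655% and 0.376% of all genes tested passed, in that order. Leaving out single arrays gave 15 to 20 genes of the list at an unadjusted p under 0.05, where 11.0% to 16.9% of all genes were, and the unmoderated test gave 16, where 12.1% were. The median of the list then lay between -0.27 and -0.20, and that of the cholesterol synthesis enzymes between -0.39 and -0.22; that of these enzymes was -0.19 with array weights. Without array 3 of both groups both medians were -0.17.

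Genes near 0 changed sign. Leaving out single arrays put Ebp between -0.051 and 0.066, Scap between -0.076 and 0.029, Insig1 between -0.22 and 0.027, Insig2 between -0.096 and 0.044, Elovl5 between -0.021 and 0.26, Fads1 between -0.33 and 0.16, and Scd2 between -0.14 and 0.054. With sex as a covariate Ebp was at 0.019 and Scap at 0.025, and with array weights Ebp was at 0.020 and Insig1 at 0.072. Without array 3 of both groups Ebp was at 0.068, Scap at 0.055, Insig1 at 0.14 and Insig2 at 0.056. The cause was not tested.

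The array number as a block moved the calls over all genes to 215, against 56 without it, and those among further lipid genes to 4 (Acss2, Elovl2, Cyp11a1 and Gpam); 0 genes of the list passed and 23 had an unadjusted p under 0.05, where 19.2% of all genes did. Arrays of the same number deviated together with r = 0.089, 0.17 and 0.29 over all genes. Each Dicer KO array correlated best with the control of its own number, and so did control arrays 2 and 3 with theirs, while control array 1 had 0.094 with Dicer KO array 2 and 0.089 with Dicer KO array 1. The pairing was not used, because not every pair was above 0.1 and no label ties the numbers.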

Other observations

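Reported targets of miR-33, a list that shares Abca1, Abcg1, Insig2 and Srebf1 with the genes above, had 11 of 14 measured members with positive differences, against 47.3% of all genes, and a median of 0.10. At an unadjusted p under 0.05 there were 2, Abca1 and Srebf1, or 14.3%, against 14.4% of all genes, and 0 passed an adjusted p of 0.05 in limma. List means relative to the controls were 0.053, 0.12 and 0.23 in Dicer KO arrays 1 to 3, against -0.10, -0.033 and 0.14 in control arrays 1 to 3, so control array 3 lay among the Dicer KO arrays.

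Of 7 genes that make the characteristic lipids of myelin, such as the galactosyltransferase Ugt8a, 6 had negative differences, where 52.7% of all genes did. The median of the 7 was -0.058. In limma 14.4% of all genes reached an unadjusted p of 0.05, and 0 of these 7 genes did. Their list means relative to the controls were -0.070, -0.30 and 0.11 in Dicer KO arrays, against -0.15, -0.11 and 0.26 in controls, an order of arrays in which Dicer KO array 2 was low and control array 3 high.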
